A study of Mus musculus with 10 samples.

Results

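The genes described here encode proteins of the synaptic vesicle and of the SNARE machinery that fuses it with the plasma membrane. They were chosen by gene symbol alone, as families of synaptotagmins, syntaxins, syntaxin-binding proteins, VAMPs, SNAP proteins, SV2 glycoproteins, RAB3 GTPases, complexins, synapsins, synaptophysin relatives, NSF with its adaptors, and active zone proteins. The rule found 71 genes among the 12575 in the table, and all 71 passed the filter on low values (above 1 CPM, the read count of a gene scaled to library size, in at least 4 libraries), which kept 12573 genes. RNA sequencing was performed on cortical tissue of C57BL/6 mice, 4 months old per the labels, with 5 Cre- libraries and 5 BMAL1 aKO libraries. BMAL1 aKO mice were Aldh1l1-Cre ERT2; Bmal1 fl/fl and lost Bmal1 in astrocytes after tamoxifen. Cre- littermates were Bmal1 fl/fl without Cre, so both groups carried the floxed alleles, and both received tamoxifen. The Aldh1l1 promoter drives Cre in astrocytes, while whole tissue was sequenced, and Bmal1 in neurons was left intact. The study's text gives an older age and fewer BMAL1 aKO mice than the labels list, and does not say which library was left out, so all 10 libraries were used.

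Transmitter release depends on a bundle of SNARE proteins that zippers between membranes: VAMP on the vesicle, syntaxin and a SNAP protein on the target membrane. Synaptotagmins such as that of Syt1 sense calcium and trigger the fusion, and complexins clamp and activate the bundle. Syntaxin-binding proteins assemble or restrain the bundle, and NSF with its adaptors takes it apart again. In cortex most of these genes are transcribed mainly in neurons, while Snap23, Vamp3, Vamp8 and Stx4a serve secretion in most cell types, glia included.

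In these data 1 of the 71 genes (1.41%) passed the threshold, where 0.334% of all genes did. It was the vesicle glycoprotein gene Sv2b, lower in BMAL1 aKO, and it was not called without library quality weights or at a threshold of 0.05. The genes of the fusion core, among them Snap25, Vamp2 and Stx1a, had log2 fold changes between -0.085 and 0.020, none past the threshold. The inhibitory syntaxin binders Stxbp5 and Stxbp5l and the calcium sensor Syt1 had lower means in BMAL1 aKO. They passed only when BMAL1 aKO replicate 3 was left out, and 4.02% of all genes were then called lower. The complexin gene Cplx3 had the largest positive difference among members above 10 CPM, and it missed the threshold. Fold changes are differences of log2(CPM + 0.5), BMAL1 aKO minus Cre-, from limma with a quality weight per library, with Benjamini-Hochberg adjustment over all 12573 genes and a threshold of 0.1. The study counts these groups in mice, but the labels do not tie each library to 1 animal and list more BMAL1 aKO libraries. The p-values therefore measure the spread between these libraries.

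Total reads ran from 21844770 to 48295715 in Cre- and from 23127338 to 47964460 in BMAL1 aKO. Arntl, the symbol of Bmal1, had levels of 34.0, 31.9, 32.2, 37.1 and 35.8 CPM in the Cre- libraries, and of 35.7, 33.0, 38.8, 31.1 and 33.9 CPM in the BMAL1 aKO libraries, both in the order of replicates 1 to 5. The groups overlapped, and this level does not check the labels, since the whole gene was counted in tissue whose other cells keep Bmal1. Fabp7, a fatty acid binding protein gene of astrocytes and their progenitors, was at 9.94 to 19.9 CPM in Cre- and at 90.8 to 237 CPM in BMAL1 aKO, with replicate 3 the lowest of the latter. Gfap, the astrocyte filament gene, was at 134 CPM in BMAL1 aKO replicate 3, within the Cre- range of 109 to 138 CPM, and at 160 to 279 CPM in the other BMAL1 aKO libraries. The cortical excitatory neuron markers were present in every library, at a sum over 8 genes of 4434 to 6942 CPM in Cre- and 4867 to 7080 CPM in BMAL1 aKO. Cre- replicate 3 stood apart: 10 markers of striatum, the region under the cortex, summed to 2182 CPM there and to 519 to 1310 CPM in the other libraries. The 13 mitochondrial genes summed to 55930 CPM in Cre- replicate 3, the lowest of all, and to 83780 to 179800 CPM elsewhere. Over all genes 0.334% were called in either direction and 0.0477% were called lower.

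Compared per kb of exon in Cre- tissue, Snap25 and Vamp2 of the fusion core had ranks 1 and 4, while Stx1a had rank 15 at 76.5 CPM per kb. Snap25, the plasma membrane SNARE of neurons, had the highest level at 473 ± 122 CPM per kb (SD, n = 5). It was followed by the complexin genes Cplx2 at 276 ± 68.4 and Cplx1 at 260 ± 40.8 CPM per kb, and by the vesicle SNARE gene Vamp2 at 253 ± 40.7 CPM per kb. Lower levels were those of the vesicle GTPase gene Rab3a at 224 (SD 21), Syt1 at 193 ± 10.4 and Syn1 at 191 ± 19.5 CPM per kb. At the low end stood Vamp8 at 1.38 and Syt14 at 0.582 CPM per kb. Neighbours in this order overlapped in range among the 5 Cre- libraries except where Syp lay above Snap47 and Vamp8 above Syt14. The gene Vamp7 had no exon length in the annotation and is not in the order.

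Several families were led by 1 gene, and their balance was close to the same in both groups. Snap25 made up 81.8% ± 4.93 of the CPM per kb of the SNAP family in Cre- and 82.3% ± 2.29 in BMAL1 aKO (SD, n = 5 each). Vamp2 made up 87.0% ± 2.58 of the VAMPs in Cre- and 86.6% ± 1.92 in BMAL1 aKO. Rab3a made up 79.1% ± 1.77 of its family in Cre- and 78.7% ± 2.35 in BMAL1 aKO. The synaptotagmins were shared out more widely, with Syt1 at 33.1% ± 2.44 and Syt11, which does not bind calcium, at 27.0% ± 0.991 in Cre-. In BMAL1 aKO these shares were 31.2% ± 1.91 and 29.03% ± 0.498. Each of these group means lay within 1 SD of Cre- of the other, except the share of Syt11.

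**Figure D1:**
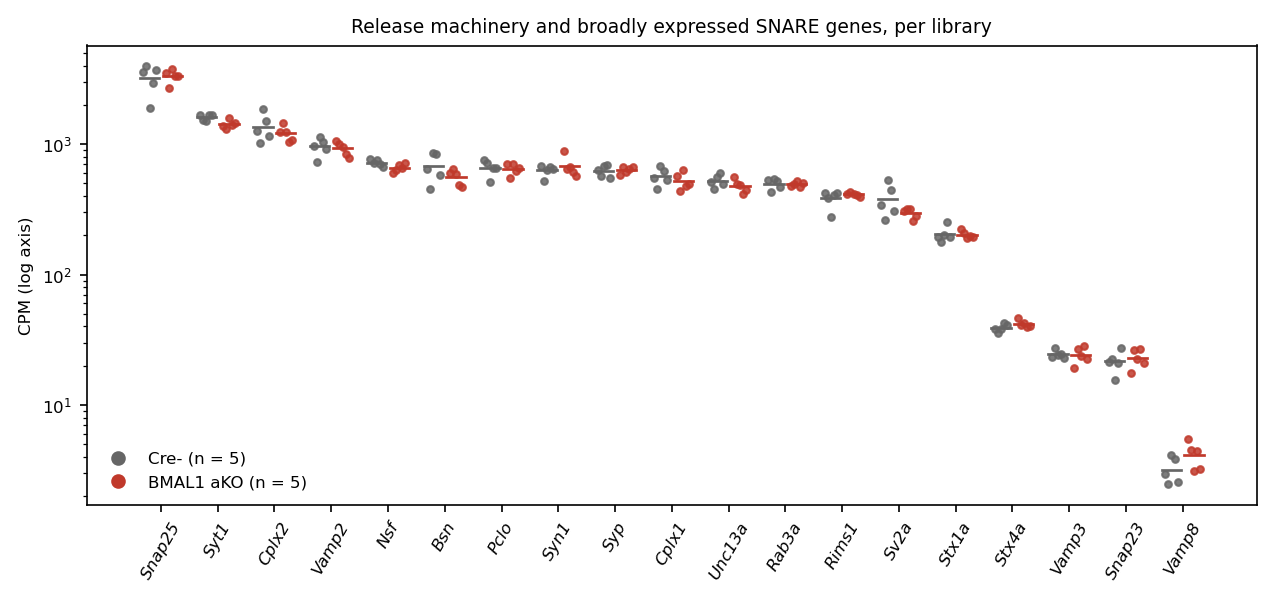
CPM on a log axis of 15 genes of the release machinery and 4 broadly expressed SNARE genes in each library, ordered by the Cre- mean. Grey points are 5 Cre- libraries, red points 5 BMAL1 aKO libraries and bars the arithmetic means. The groups overlap for all 19 genes, and the low Snap25 point of 1890 CPM is Cre- replicate 3.

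On the vesicle membrane, the SV2 glycoproteins are transporter-like proteins that prime vesicles for release, and Sv2a is the binding site of the antiepileptic levetiracetam. Sv2b was at 403, 307, 330, 329 and 344 CPM in Cre- and at 283, 289, 315, 298 and 282 CPM in BMAL1 aKO, with replicates 1 to 5 in order, here and for the genes that follow. Every BMAL1 aKO library except replicate 3 lay below every Cre- library, and replicate 3 lay above Cre- replicate 2 only. Its log2 fold change was -0.37 (SE 0.076, 95% interval -0.54 to -0.21, adjusted p = 0.0918), a level 0.773 times that of Cre-.

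The size of this difference rested on Cre- replicate 1, which had the highest Sv2b value and a quality weight of 7.19, against 0.181 to 1.79 for the other libraries. Without weights the log2 fold change was -0.22 (adjusted p = 0.803). Without Cre- replicate 1, a fit whose weights did not converge, here and for the genes that follow, it was -0.18 (adjusted p = 0.925). Over the libraries left out in turn it ran from -0.40 to -0.18, and the gene was called in only 2 of these fits, without Cre- replicate 2 (adjusted p = 0.0716) and without BMAL1 aKO replicate 3 (adjusted p = 0.0491). The exons of Sv2b (chr7:75114894-75309262, minus strand, GRCm38) overlap those of the antisense gene 1500012K07Rik, and the library kit does not mark strand, so their reads cannot be told apart.

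BMAL1 with its partner CLOCK binds the E-box, a motif whose canonical form is CACGTG and reads the same on both strands. It was searched in windows of 300 bases around RefSeq start sites (250 before and 50 after, GRCm38.p6), of which 57 members had at least 1. The motif was in a window of 9 members (15.8%), of 11.8% of the genes tested and of 8.09% of all RefSeq genes with a window. The 9 were Stx6, Vamp4, Syt14, Syt6, Napa, Sv2b, Stxbp2, Cplx3 and Nsf. At an unadjusted p below 0.05 were 4 of these 9, Sv2b, Cplx3, Nsf and Syt14, and 9 of the 48 without the motif, while over all genes tested the shares were 16.6% with and 16.2% without it. The sequences of these 4 genes are shown with the motif in capitals, because they are the promoters with the motif whose genes had the smallest p, Cplx3 with the higher and the others with the lower mean in BMAL1 aKO. Each is on the strand of its gene and lies before the start site: Sv2b at chr7:75302777-75302822 (193 bases before 1 of its 4 starts), Cplx3 at chr9:57606341-57606386 and chr9:57606311-57606356 (85 and 55 bases before), Nsf at chr11:103954205-103954250 (174 bases before) and Syt14 at chr1:193035827-193035872 (77 bases before).
Sv2b: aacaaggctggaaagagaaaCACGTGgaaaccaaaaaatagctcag
Cplx3, first: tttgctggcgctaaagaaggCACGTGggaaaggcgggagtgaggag
Cplx3, second: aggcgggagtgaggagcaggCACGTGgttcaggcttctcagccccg
Nsf: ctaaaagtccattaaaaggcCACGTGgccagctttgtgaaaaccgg
Syt14: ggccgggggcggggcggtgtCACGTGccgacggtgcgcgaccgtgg
Napa, whose sequences are not shown, had the motif at 185, 136 and 29 bases before its start. Its log2 fold change was -0.043 (unadjusted p = 0.61 in limma). A match describes the sequence and not binding, and windows without these letters say nothing of the factor. Snap25 and Vamp2 were among the 14 members with no window in the table used.

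The paralogues of Sv2b had wider spreads. Sv2a was at 342, 261, 528, 442 and 309 CPM in Cre- and at 308, 316, 320, 259 and 280 CPM in BMAL1 aKO, with a log2 fold change of -0.21 (SE 0.094, adjusted p = 0.289). The groups overlapped, with Cre- replicates 3 and 4 on top. Sv2c, which is enriched in striatum and other basal ganglia, was at 25.2, 21.8, 55.3, 28.9 and 14.9 CPM in Cre- and at 19.9, 21.6, 24.1, 10.5 and 19.0 CPM in BMAL1 aKO. Its log2 fold change of -0.37 (SE 0.22, adjusted p = 0.395) became -0.25 without Cre- replicate 3, -0.10 without Cre- replicate 1 and -0.58 without BMAL1 aKO replicate 3.

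Among the syntaxin-binding genes, 2 related ones had lower means in BMAL1 aKO. Stxbp5 and Stxbp5l encode tomosyns, which occupy syntaxin and SNAP-25 and hold release back. Stxbp5l was at 73.1, 65.4, 65.5, 70.4 and 63.4 CPM in Cre- and at 59.0, 49.1, 65.9, 55.0 and 50.3 CPM in BMAL1 aKO. BMAL1 aKO replicate 3 lay inside the Cre- range and the other 4 lay below it. The log2 fold change was -0.33 (SE 0.084, adjusted p = 0.153), and -0.42 (SE 0.075, adjusted p = 0.0326) without BMAL1 aKO replicate 3. Without Cre- replicate 1 it was -0.21 (adjusted p = 0.925), and without weights -0.28 (adjusted p = 0.803). Stxbp5 was at 152, 135, 151, 138 and 150 CPM in Cre- and at 117, 127, 147, 127 and 123 CPM in BMAL1 aKO, again with only replicate 3 inside the Cre- range. Its log2 fold change was -0.20 (SE 0.066, adjusted p = 0.185), and -0.27 (SE 0.059, adjusted p = 0.0573) without that library. None of the other 5 genes of this family passed the threshold.

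**Figure D2:**
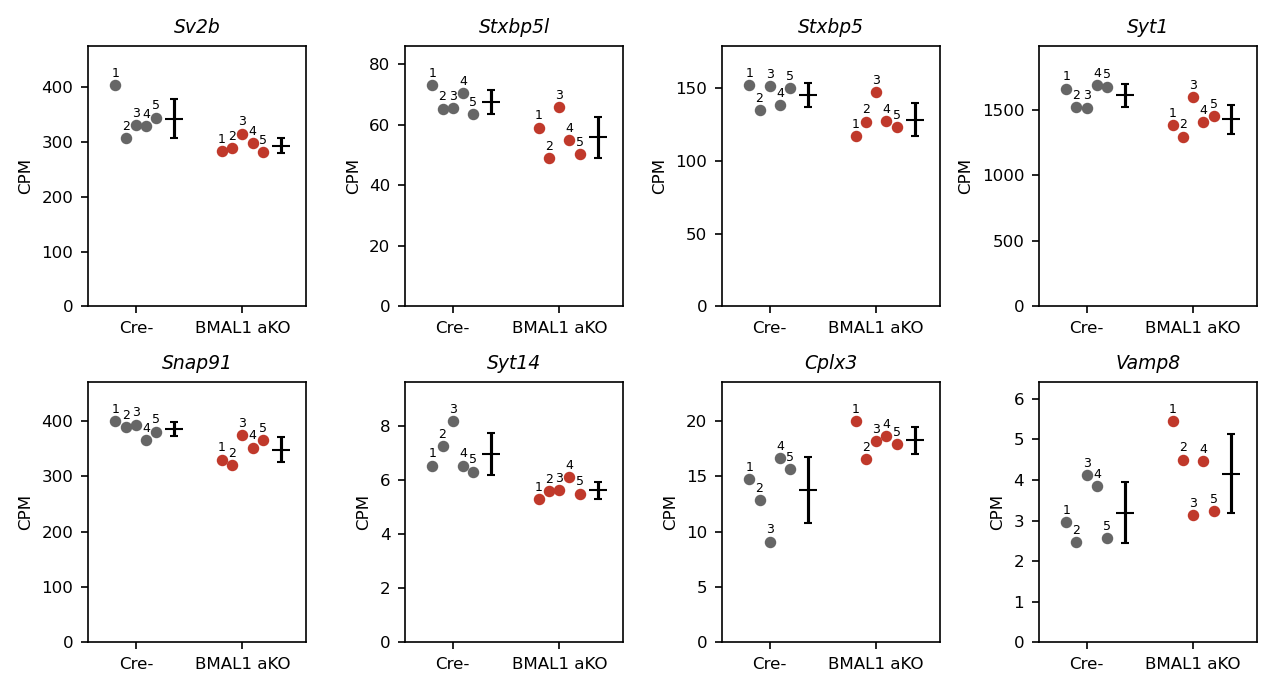
CPM of 8 genes in each library, Cre- in grey and BMAL1 aKO in red, with the replicate number over each point and black bars for the mean ± SD (n = 5). BMAL1 aKO replicate 3 sits above the other 4 BMAL1 aKO libraries for Sv2b, Stxbp5l, Stxbp5, Syt1 and Snap91, and for Syt14 the groups do not overlap.

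Of 15 synaptotagmins, not all of which bind calcium, 13 (86.7%) had negative fold changes, where 61.6% of all genes did. Their median was -0.14 on the log2 scale, and none passed the threshold. With TMM scaling, a factor per library set by the bulk of genes, 11 were negative (73.3%, against 50.7% of all genes). The 15 genes share the same libraries, so their signs are not independent. Without Cre- replicate 1, Syt5, Syt6, Syt9 and Syt10 turned positive (0.031, 0.038, 0.13 and 0.051), and the other synaptotagmins kept their sign. Syt1, the fast sensor of forebrain synapses, was at 1660, 1518, 1516, 1686 and 1675 CPM in Cre- and at 1383, 1295, 1598, 1404 and 1449 CPM in BMAL1 aKO. The 4 BMAL1 aKO libraries other than replicate 3 lay below all Cre- libraries. The log2 fold change was -0.19 (SE 0.065, adjusted p = 0.192), and -0.24 (SE 0.062, adjusted p = 0.0711) without replicate 3. Syt2, a fast sensor of hindbrain and parvalbumin synapses, overlapped widely, at 53.0 to 83.2 CPM in Cre- and 40.5 to 68.1 CPM in BMAL1 aKO, where replicate 3 was the highest. Its log2 fold change was -0.25 (adjusted p = 0.343), and -0.43 (adjusted p = 0.0688) without BMAL1 aKO replicate 3.

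Syt14 was the only one of the 71 genes whose groups did not overlap over all 10 libraries. It was at 6.52, 7.23, 8.16, 6.52 and 6.30 CPM in Cre- and at 5.27, 5.58, 5.61, 6.10 and 5.48 CPM in BMAL1 aKO, and over all genes 0.382% were lower in every BMAL1 aKO library and 0.620% were higher in every one. No member was higher in every BMAL1 aKO library. The log2 fold change of Syt14 was -0.20 (SE 0.084, adjusted p = 0.268), with a gap between the groups of less than the range within either. Syt17 had a log2 fold change of -0.33 (SE 0.16, adjusted p = 0.305) and Syt10 of -0.38 (SE 0.21, adjusted p = 0.367), both with overlapping groups, and these became -0.095 and 0.051 without Cre- replicate 1.

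No complexin gene passed the threshold. Cplx3, which is made in the retina and in the deepest layer of cortex, was at 14.7, 12.8, 9.08, 16.6 and 15.6 CPM in Cre- and at 19.95, 16.5, 18.2, 18.6 and 17.9 CPM in BMAL1 aKO. The lowest BMAL1 aKO library, replicate 2, and the highest Cre- library, replicate 4, were the only ones that crossed. The log2 fold change was 0.29 (SE 0.083, adjusted p = 0.176) with weights and 0.42 (adjusted p = 0.803) without them. Leaving out Cre- replicate 3, its lowest library, brought the unweighted value to 0.28 (adjusted p = 0.999). The 6 measured markers of deep layers (Foxp2, Ntsr1, Hs3st4, Tle4, Bcl11b and Fezf2) summed to 285 to 399 CPM in Cre- and to 285 to 331 CPM in BMAL1 aKO. The 399 CPM was that of Cre- replicate 3, where Bcl11b alone was at 208 CPM. The part of layer content in the Cplx3 values was not tested. The abundant Cplx1 and Cplx2 had log2 fold changes of -0.063 and -0.082, with standard errors of 0.093 and 0.096.

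Among the SNAREs themselves, no gene passed the threshold. Vamp8, a SNARE of secretory and late endosomal membranes, was at 2.96, 2.47, 4.11, 3.85 and 2.56 CPM in Cre- and at 5.44, 4.49, 3.13, 4.45 and 3.22 CPM in BMAL1 aKO, and the groups overlapped. Its log2 fold change of 0.34 (SE 0.14, adjusted p = 0.256) was the largest positive one of all 71. Vamp2 was at 975, 731, 1144, 1047 and 913 CPM in Cre- and at 1055, 1011, 944, 841 and 787 CPM in BMAL1 aKO, with a log2 fold change of -0.085 (SE 0.085, adjusted p = 0.615). Vamp3, the broadly expressed counterpart of Vamp2, had a log2 fold change of 0.052, and -0.029 without weights.

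Snap25 was at 3549, 3943, 1890, 2949 and 3731 CPM in Cre- and at 3484, 2710, 3767, 3351 and 3309 CPM in BMAL1 aKO. Only Cre- replicate 3 stood far off, and the log2 fold change was -0.063 with weights (SE 0.10, adjusted p = 0.763) and 0.088 without. The ubiquitous Snap23 was at 15.7 to 27.6 CPM in Cre- and 17.5 to 26.9 CPM in BMAL1 aKO. Of 13 syntaxins, 8 had negative and 5 positive fold changes, with a median of -0.028 on the log2 scale that became 0.0062 with TMM scaling. The neuronal gene Stx1a had a log2 fold change of 0.020 (SE 0.067), which was -0.0020 without weights. Stx17, which acts in autophagosome fusion, had -0.15 (adjusted p = 0.295) and Stx2, a plasma membrane syntaxin, 0.17 (adjusted p = 0.289).

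The genes that take SNARE bundles apart had negative fold changes, although Napa, at -0.043, was at 0.0046 with TMM scaling. Nsf, the ATPase, was at 766, 718, 754, 702 and 670 CPM in Cre- and at 606, 628, 690, 660 and 716 CPM in BMAL1 aKO, with a log2 fold change of -0.16 (SE 0.065, adjusted p = 0.258). Its adaptor gene Napb had a log2 fold change of -0.13 (SE 0.058, adjusted p = 0.281). Without Cre- replicate 1, the library of highest weight, these became -0.042 for Nsf and -0.040 for Napb. Snap91, in spite of its symbol, encodes the clathrin adaptor AP180 of vesicle retrieval. It was at 400, 389, 394, 366 and 381 CPM in Cre- and at 331, 321, 374, 352 and 366 CPM in BMAL1 aKO, and only BMAL1 aKO replicate 3 reached clearly into the Cre- range, with replicate 5 level with the lowest Cre- library. The log2 fold change was -0.16 (SE 0.057, adjusted p = 0.212).

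The remaining vesicle and active zone genes were near 0 or spread widely. Syn1, which tethers vesicles to actin, was at 680, 519, 637, 669 and 642 CPM in Cre- and at 889, 639, 667, 612 and 565 CPM in BMAL1 aKO, with a log2 fold change of -0.037 with weights and 0.087 without. Syn3 had -0.27 (SE 0.11, adjusted p = 0.255), and its exons overlap those of Timp3 on the other strand. The vesicle marker Syp had a log2 fold change of 0.031 (SE 0.067) and Rab3a of -0.054 (SE 0.063). The 4 active zone genes Bsn, Pclo, Unc13a and Rims1, which scaffold and prime vesicles, had -0.23, -0.16, -0.12 and -0.027, none past the threshold, and Rims1 turned to 0.0155 with TMM scaling and 0.12 without weights. Pclo became -0.0087 without Cre- replicate 1 and -0.019 without weights.

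**Figure D3:**
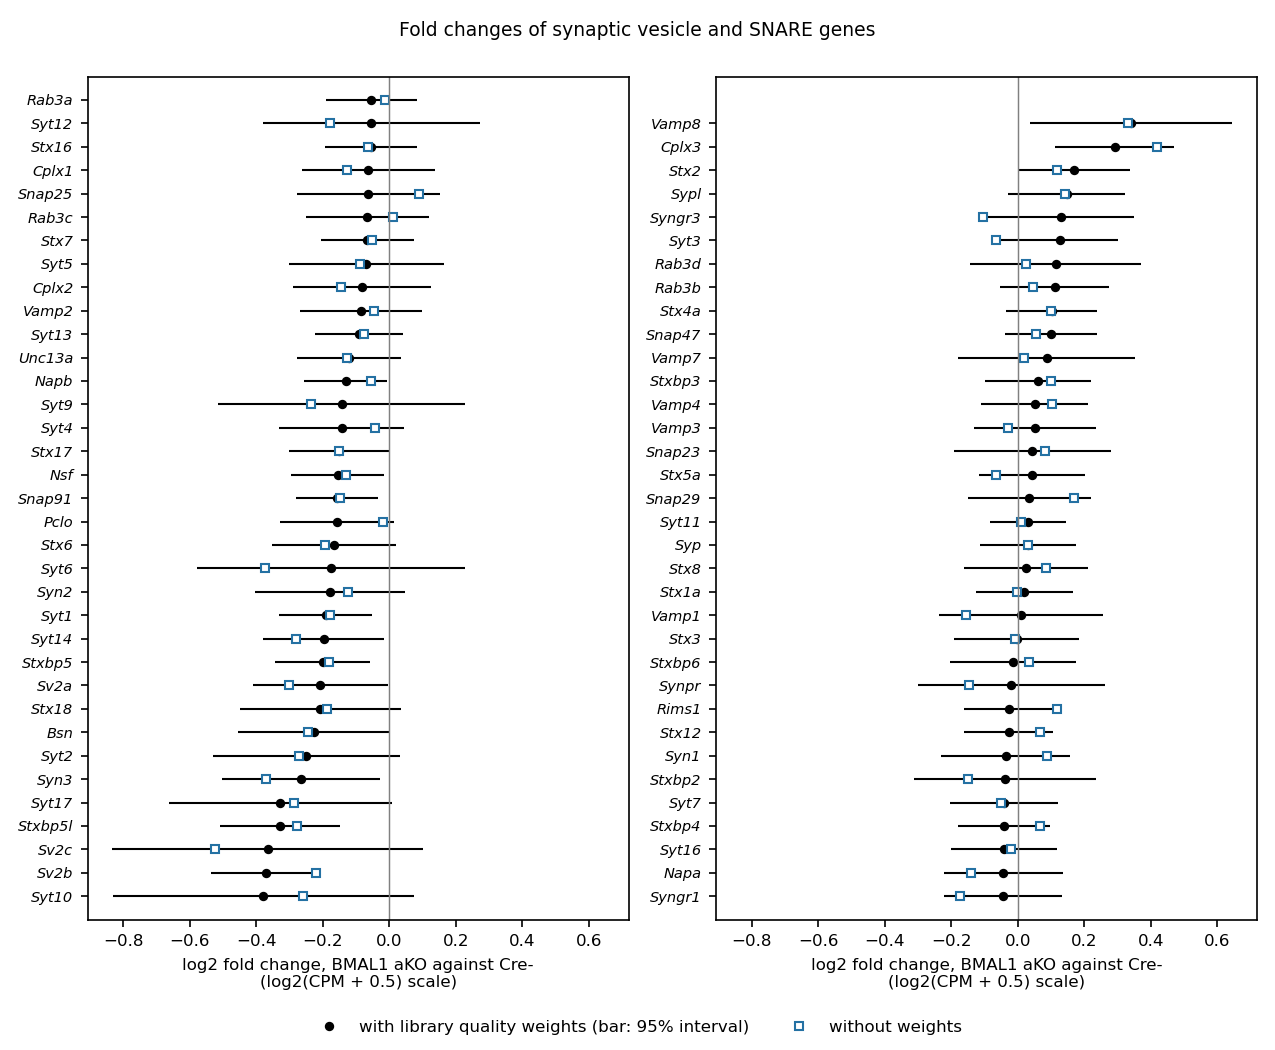
Log2 fold change of 69 of the genes, BMAL1 aKO against Cre-, on the log2(CPM + 0.5) scale. Black points with bars give the fit with library quality weights and its 95% interval, and open blue squares the fit without weights. Sv2b, at -0.37, is the only gene past the threshold, and its unweighted value is -0.22.

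As a group, 49 of the 71 genes had negative fold changes, which is 69.0%, against 61.6% of all genes tested. The median was -0.055 on the log2 scale, against -0.043 over all genes. With TMM scaling 40 of the 71 genes, or 56.3%, were negative against 50.7% of all genes, and the medians were -0.011 and -0.0021. At an unadjusted p below 0.05, 11 members (15.5%) were lower where 10.0% of all genes were, and 3 members (4.23%) were higher where 6.82% of all genes were. Without weights 5 members (7.04%) had an unadjusted p below 0.05, where 4.79% of all genes did, and none were called, while 4 of all genes were called. Genes of other kinds also leaned in 1 direction in the fit with weights. All 13 mitochondrial genes had positive fold changes (median 0.31 on the log2 scale, 6 of them higher at an unadjusted p below 0.05). So did all 10 oligodendrocyte markers (median 0.17) and 8 of 10 astrocyte markers (median 0.10). In the unweighted fit 0 of the 13 mitochondrial genes were negative (median 0.51). There, 4 of the 10 oligodendrocyte markers (median 0.035) and 3 of the 10 astrocyte markers (median 0.15) were negative. The part of these other genes in the members' fold changes was not tested. In whole tissue, the number of neurons, the RNA made per neuron and the share of RNA from other sources cannot be told apart.

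Leaving out BMAL1 aKO replicate 3, the library with the lowest Fabp7 and Gfap of its group, changed the counts most. Then 5 members (7.04%) were called lower, namely Stxbp5, Stxbp5l, Sv2b, Syt1 and Syt2, where 4.02% of all genes were called lower. With TMM scaling as well, Stxbp5l and Sv2b were left (2.82%), where 1.13% of all genes were called lower. Without weights none of the members were called in these 9 libraries. The groups of these 9 libraries did not overlap, with BMAL1 aKO lower, for 6 members (8.45%), namely Snap91, Stxbp5, Stxbp5l, Sv2b, Syt1 and Syt14, where 1.32% of all genes did so. The combinations with TMM scaling or without weights and the count of groups that did not overlap were added after the values of that library were seen.

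The precision of these data limits what the genes near 0 show. The 95% interval lay within a 1.5-fold change in either direction for 67 of the 71 genes with weights, the exceptions being Sv2c, Syt10, Syt17 and Vamp8, and for 57 without weights. The shares over all genes were 91.6% and 72.7%. The median SD within groups was 0.195 on the log2 scale for the members and 0.227 for all genes.

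Other genes of the pathway, from lists that share no member with the 71, gave no call in the fit of all 10 libraries, and the background at an unadjusted p below 0.05 is again 10.0% lower and 6.82% higher. Of 18 measured genes for other SNAREs and their partners, 3 were lower and 0 higher at an unadjusted p below 0.05, with a median log2 fold change of -0.069. Of 21 other active zone and priming genes 4 were lower and 0 higher, with a median of -0.094. Of 29 genes of vesicle endocytosis and recycling 9 were lower and 1 higher, with a median of -0.075. Of 20 other vesicle membrane proteins and transporters 2 were lower and 0 higher, with a median of -0.065. Without BMAL1 aKO replicate 3, in the order given, 1, 3, 5 and 2 genes of these lists were called lower, where 4.02% of all genes were.

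Cre- replicate 3 held the highest value of all 10 libraries for 27 members (38.0%) and the lowest for 14 (19.7%), where it did so for 39.9% and 20.7% of all genes, shares much like those of the members. Syt6, a synaptotagmin without a settled role at cortical synapses, was at 87.8 CPM there and at 19.7 to 37.5 CPM in the other 9 libraries. Syt9, a calcium sensor of striatal and limbic synapses, was at 17.3 CPM there and at 4.40 to 8.95 CPM elsewhere. Syt10, which acts in growth factor secretion, was at 17.6 CPM there and at 5.37 to 11.5 CPM elsewhere. Sv2c and Syngr3 also peaked there, at 55.3 and 135 CPM, while Snap25 and Cplx3 were at their lowest. In that library all 10 striatal markers were at their highest of the 10 libraries, and the upper layer markers were at their lowest sum, 1117 CPM against 1492 to 1909 CPM. The part of these in the members' values was not tested. Without Cre- replicate 3 no member was called, and the log2 fold change of Syt6 went from -0.17 to -0.067.

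**Figure D4:**
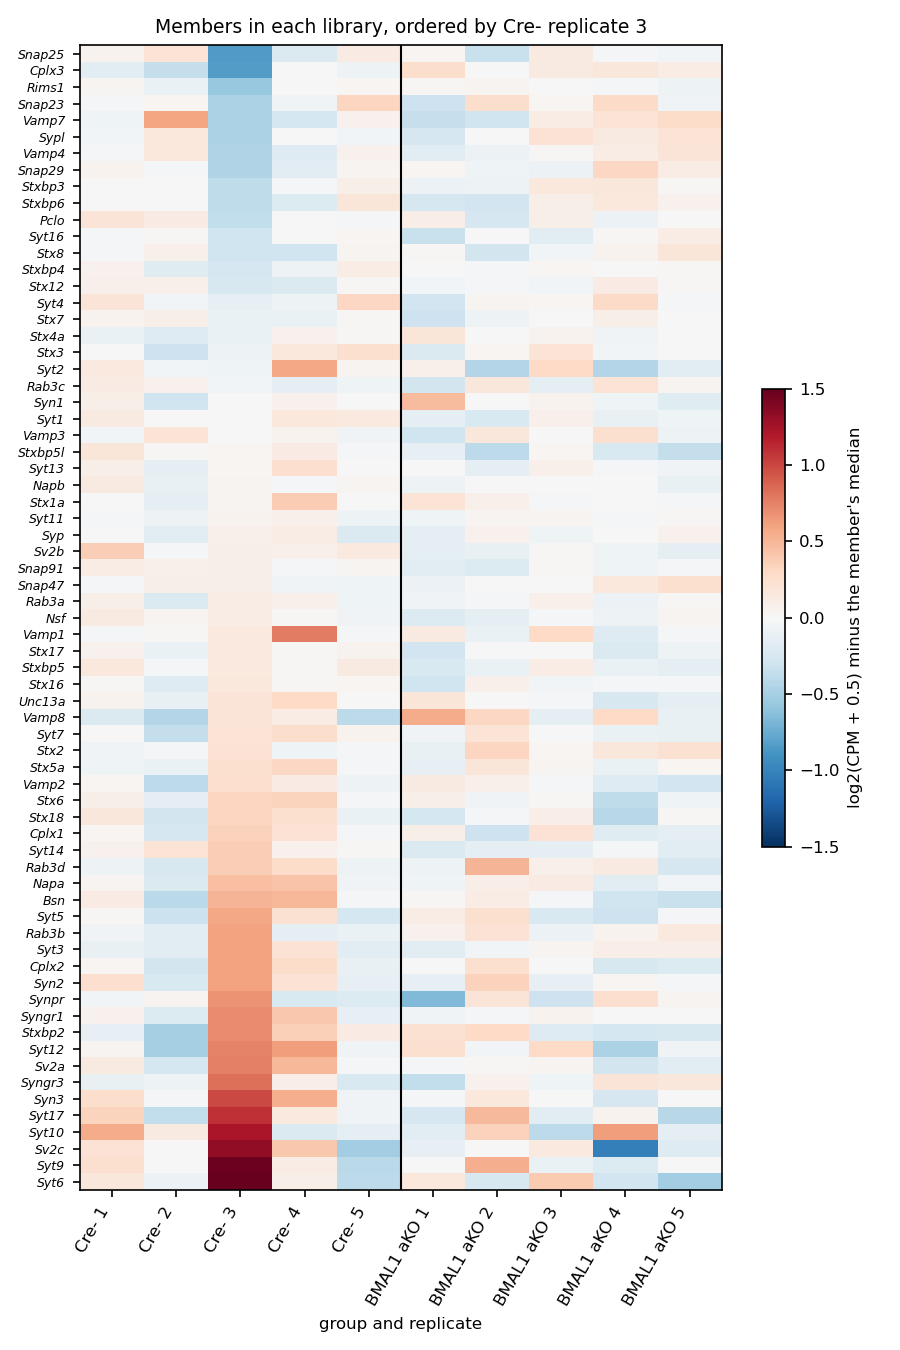
The same 69 genes (rows) in each library (columns) as log2(CPM + 0.5) minus the gene's median over 10 libraries, red above and blue below, with values beyond 1.5 drawn in the end colours. Rows are ordered by Cre- replicate 3, which runs from deep blue for Snap25 to deep red for Syt6, while most cells of the other 9 columns are pale.

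**Figure D5:**
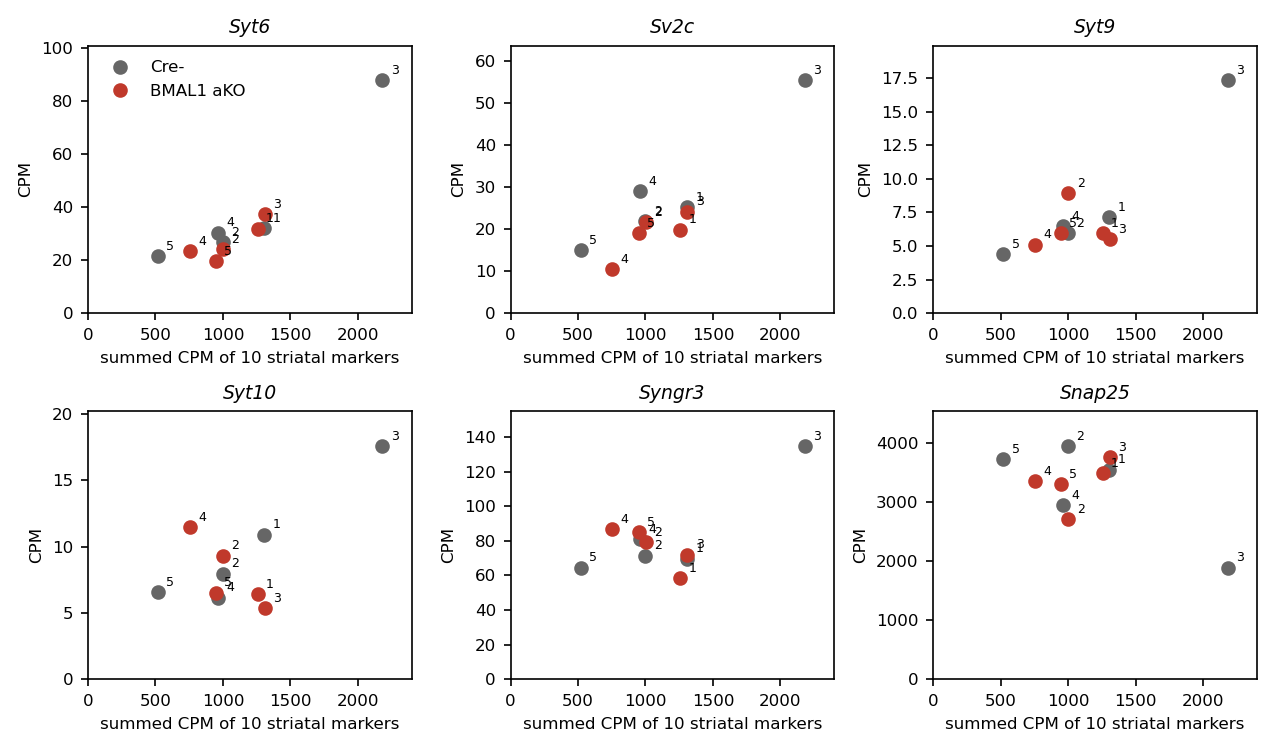
CPM of 6 members against the summed CPM of 10 striatal markers, with 1 point per library, Cre- in grey and BMAL1 aKO in red, numbered by replicate. Cre- replicate 3, at 2182 CPM of striatal markers, has the highest Syt6, Sv2c, Syt9, Syt10 and Syngr3 and the lowest Snap25.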

How the data were processed

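Per the labels and the study's methods, libraries were made from cortical RNA with the SMARTer Ultra Low kit, reads were aligned to GRCm38 with STAR 2.5.1a and counted per gene with featureCounts 1.4.6-p5, and the authors deposited CPM per gene and library. These CPM reached 99.12 to 99.27% of the sum that unscaled CPM of all genes would have, so they hold no TMM scaling. Dividing by the smallest step gave whole reads (100% of values within 0.01 read), which gave the total reads and TMM factors (0.923 to 1.10). The filter required more than 1 CPM in 4 or more libraries. Values of log2(CPM + 0.5), computed from the deposited CPM, entered limma 3.58.1 (R 4.3.3) with arrayWeights, a variance trend and Benjamini-Hochberg adjustment at 0.1. The fit was tested on simulated data. Libraries with the same replicate number did not deviate together (r from -0.622 to 0.363 over 5 pairs), so no pairing was used. The study's removal of ribosomal genes was not repeated. Exon lengths, strands and overlaps came from GENCODE M21, which matched 70 of 71 members and 12550 genes, and promoter sequences from RefSeq (GRCm38.p6). Python 3.11.15, pandas 2.3.3, NumPy 2.4.6 and matplotlib 3.10.9 were used.

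The members, gene lists and tests were chosen with earlier results of these data known. Genes were named by rule: 17 genes of the release core, 4 broadly expressed SNAREs, members past the threshold, the 2 smallest p of each family, the 6 largest changes and the 4 largest SDs within groups, 42 in all. Those named beyond it (Syt2, Syt5, Syt11, Vamp7 and the genes with an E-box) were chosen after their values were seen. Alternatives were other pseudocounts, no filter, no weights, TMM scaling, voomWithQualityWeights on whole reads, a replicate block, each library left out and a threshold of 0.05. A further 4 fits, combining TMM scaling or no weights with each other or with a left-out library, were added after seeing the data. Values of 2 members are not reported here, though both are counted among the 71.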

Additional observations from a re-analysis of the deposited data

Results flagged for a closer look

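The 42 named genes gave 84 groups of 5 libraries. In 8 of these groups a library had a gap to its nearest neighbour of more than 0.71 of the group's range. The chance rate of about 1 in 20 is no yardstick here. Of the named genes, 4 were named for their large SDs within groups, Syt6 and Syt9 among them, and all genes share the same libraries. Of the 8 flagged groups, 6 were flagged for Cre- replicate 3, the library with the highest striatal markers. In that library Syt6 was at 87.8 CPM (21.6 to 32.1 in the other Cre- libraries), Syt9 at 17.3 CPM (4.40 to 7.14), Syngr3 at 135 CPM (64.5 to 80.9), Rab3b, a RAB3 paralogue, at 72.2 CPM (42.3 to 46.0), Stx2 at 20.2 CPM (16.51 to 17.05) and Rims1 at 278 CPM (384 to 423). Syn1 was at 519 CPM in Cre- replicate 2, the shallowest library (637 to 680 in the other Cre- libraries). Syt9 was at 8.95 CPM in BMAL1 aKO replicate 2 (5.10 to 5.96 in the other BMAL1 aKO libraries). The part of tissue makeup or depth in these values was not tested.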

How the results depend on the processing

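The number of members called, 1, was the same with pseudocounts of 1 and 0.1, with no filter and with TMM scaling. It was 0 without quality weights (also with TMM scaling, without BMAL1 aKO replicate 3 or without Cre- replicate 3), with voomWithQualityWeights, with the replicate block and at a threshold of 0.05. It was 2 with TMM scaling without BMAL1 aKO replicate 3, and ran from 0 to 5 over the libraries left out in turn, while the count over all genes, 42, ran from 1 (without Cre- replicate 1) to 844 (without BMAL1 aKO replicate 3). Over all genes 4 were called without weights, 68 with TMM scaling, 29 with voomWithQualityWeights, 7 with the replicate block and 20 at a threshold of 0.05. Same-numbered libraries share only a number. Of 42 named genes, 25 kept their sign under all 21 alternatives and 17 did not, none of the latter past the threshold in any of them. The cause was not tested.

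Sign changes, as log2 fold changes, were these. Without weights Rims1 was 0.12, Snap25 0.088, Stx1a -0.0020, Syn1 0.087, Syngr3 -0.10 and Vamp3 -0.029. With TMM scaling Rims1 was 0.0155 and Syn1 0.017, and without BMAL1 aKO replicate 3 as well Rims1 was 0.016. With TMM scaling and no weights Pclo was 0.032, Rab3a 0.038, Rims1 0.17, Snap25 0.14, Syn1 0.14, Syngr3 -0.052 and Vamp2 0.0055. With voomWithQualityWeights Rab3a was 0.012, Rims1 0.021 and Syn1 0.032. With the replicate block Rab3a was 0.0063, Rab3d -0.089, Snap23 -0.17, Syt9 0.045 and Vamp3 -0.045. With no weights and no BMAL1 aKO replicate 3 Rims1 was 0.11, Snap25 0.041, Syn1 0.087, Syngr3 -0.086 and Vamp3 -0.026. With no weights and no Cre- replicate 3 Rab3a was 0.016, Rims1 0.0056, Snap23 -0.027, Stx1a -0.0041, Syn1 0.093, Syt9 0.059, Vamp2 0.021 and Vamp3 -0.035. Over the libraries left out in turn Cplx1 ran from -0.17 to 0.011, Rab3a from -0.086 to 0.045, Rims1 from -0.044 to 0.024, Snap23 from -0.092 to 0.12, Snap25 from -0.12 to 0.035, Stx1a from -0.043 to 0.046, Syn1 from -0.11 to 0.047, Syn2 from -0.23 to 0.030, Syp from -0.018 to 0.12, Syt10 from -0.59 to 0.051, Syt6 from -0.39 to 0.038, Syt9 from -0.27 to 0.13 and Vamp3 from -0.0065 to 0.10. The weights did not converge without Cre- replicate 1 or without Cre- replicate 5, and edgeR's test on whole reads was not run.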
